A study of Mus musculus with 12 samples.

Results

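The 10 genes described here belong to the Hippo pathway, a kinase cascade that restrains growth-promoting transcription. They are the angiomotin family (Amot, Amotl1 and Amotl2), the coactivator Yap1, the transcription factors Tead1, Tead2 and Tead4, the kinase Lats2, and the matricellular genes Ccn1 (Cyr61) and Ccn2 (Ctgf). Each was read from the probe set that carries only its symbol and has the highest mean over all arrays, and they are 10 of the 19938 genes so defined. Amot was selected on the size of its difference between day 4 and day 0 on these arrays, so those differences of Amot are given as a description without a test. Total RNA of mouse cells was measured on Affymetrix gene arrays (12 in all, 4 groups of 3). Undifferentiated induced pluripotent stem cells (iPSCs) made up the day 0 group, and the other 3 groups were derived from iPSCs and collected at day 4. They were labelled as spontaneously differentiated cells, as cells of an optimized cardiac differentiation, and as a population enriched by flow cytometry for cardiac progenitor cells (CPCs) that carry FLK1 and PDGFRα. The strain, the genotype, the reprogramming method and the agents of the cardiac protocol are not given in the sources used here, and 2 abbreviations in the labels (of the iPSCs and of the cardiac condition) are not interpreted. The labels do not say whether replicates were separate cultures, and the p-values therefore cover the spread among these arrays alone, which may be technical.

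In the Hippo pathway, the kinases STK3 and STK4 activate LATS1 and LATS2, which phosphorylate the coactivators YAP and TAZ and keep them out of the nucleus. When the cascade is low, YAP and TAZ enter the nucleus and bind TEAD factors, which carry the DNA-binding domain, and genes such as Ccn1, Ccn2 and Ankrd1 are transcribed. Angiomotins are scaffold proteins of tight junctions and actin filaments that hold YAP in the cytoplasm and bind LATS and NF2. Amotl2 and Lats2 are themselves transcribed in response to YAP and TEAD, which forms a negative feedback. In the mouse blastocyst the pathway separates trophectoderm from the inner cell mass, where angiomotin is needed for Yap to be phosphorylated.

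TEAD factors bind the core motif GGAATG, which reads CATTCC on the other strand. The promoters of Ccn1 and Amotl2 are shown because these target genes carry the motif near their start and because their values separate the libraries described below. The sequences are from RefSeq on GRCm38.p6 and cover the 250 bases before the annotated start, on the strand of the gene, at chr3:145649986-145650235 (minus strand) for Ccn1 and chr9:102717554-102717803 (plus strand) for Amotl2. Capitals mark the TEAD core motif.
Ccn1: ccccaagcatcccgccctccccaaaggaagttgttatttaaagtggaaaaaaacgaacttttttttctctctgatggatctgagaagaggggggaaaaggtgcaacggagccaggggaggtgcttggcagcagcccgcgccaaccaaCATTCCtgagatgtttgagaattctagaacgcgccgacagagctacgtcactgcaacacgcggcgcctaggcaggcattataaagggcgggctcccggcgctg
Amotl2: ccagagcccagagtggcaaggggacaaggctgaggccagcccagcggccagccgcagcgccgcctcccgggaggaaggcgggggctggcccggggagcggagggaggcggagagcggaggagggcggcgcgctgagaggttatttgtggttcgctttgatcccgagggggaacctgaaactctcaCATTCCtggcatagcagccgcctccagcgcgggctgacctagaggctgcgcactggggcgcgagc
The match lay 103 bases before the start of Ccn1 and 65 bases before that of Amotl2. Windows of 300 bases, from 250 before to 50 after the start, were searched on both strands for GGAATG. It was found in 4 of the 7 members with an entry: Ccn1, Amotl2, Yap1 (141 bases before the start) and Lats2. None was found in the windows of Amot, Amotl1 and Tead2, and Tead1, Tead4 and Ccn2 had no entry. By windows this was 4 of 8, where the motif was found in 14.7% of all 32851 promoter windows and in 30.8% of the 13 windows of other YAP and TEAD target genes. The pattern TGANTCA was found in 0 of the 8 member windows and in 7.81% of all windows. It is looser than the AP-1 site TGA(C/G)TCA, which the Fos and Jun proteins bind. The window of Amot, chrX:145487590-145487889, lies inside the gene, which is annotated up to 145505966 on the minus strand. That of Amotl1, chr9:14614951-14615250, lies inside a gene annotated up to 14662974, also on the minus strand. The Amotl2 gene is annotated from chr9:102717091, so its window also lies inside the gene. Other starts of these genes were not searched. A match is a description of the letters and not of a bound site.

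The arrays were comparable in scale, with medians from 6.09 to 6.26 on the log2 scale and pairwise correlations across genes within a group of at least 0.966. The mean level of 8 pluripotency markers was 10.64 to 10.93 in the day 0 libraries and 7.76 to 9.62 at day 4. The RNAs of the sorting markers went against the label of some libraries. Kdr, which encodes FLK1, read 10.23, 6.25 and 6.03 in sorted CPC replicates 1, 2 and 3 as labelled, and Pdgfra read 11.13, 8.47 and 8.29. In day 0 libraries Kdr ran from 5.50 to 5.78 and Pdgfra from 8.75 to 9.14, so sorted replicates 2 and 3 had neither RNA clearly above day 0. The library labelled cardiac replicate 1 also had a low Kdr signal, of 5.42, but its Pdgfra signal of 9.42 was above all day 0 libraries. Differences of the sorted group from day 0 are therefore also given without sorted replicates 2 and 3 for the members and for the listed genes whose value or call this moved, a choice made after seeing the data. The sorted group is then 1 library, and its p-values assume that it varies like the other groups. In bulk RNA, fewer cells of a type and less RNA per cell cannot be told apart.

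Amot, the founding angiomotin, had log2 signals of 6.47, 7.08 and 6.72 in day 0 iPSCs. It read 10.37, 10.69 and 10.66 in spontaneously differentiated cells, 10.59, 10.81 and 10.11 in the cardiac differentiation, and 10.39, 10.12 and 8.38 in the libraries labelled sorted. All 9 day 4 libraries were above all 3 day 0 libraries, and sorted replicate 3 was the lowest of the 9. The group means were 6.76 ± 0.30, 10.57 ± 0.17, 10.50 ± 0.36 and 9.63 ± 1.09 (SD, n = 3 each), so that the mean signal was 14.1-fold, 13.4-fold and 7.34-fold that of day 0 in the 3 day 4 groups in this order. Amot was chosen by these values. By size of the difference it ranked 11, 6 and 9 from the top of 19938 genes in the 3 comparisons. Sorted replicate 1 alone lay 3.63 above the day 0 mean on the log2 scale.

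The other angiomotins did not share the size of this difference. Amotl1, a junctional paralog of Amot, read 7.40, 7.32 and 7.18 at day 0, and at day 4 its levels ran from 7.41 to 7.89. Its log2 differences from day 0 were 0.34, 0.31 and 0.38 with an SE of 0.15, and the adjusted p-values of limma were 0.186, 0.244 and 0.18. Every spontaneous, cardiac and sorted library was above every day 0 library for Amotl1, but the differences did not pass the test. Without sorted replicates 2 and 3 the sorted difference was 0.44 (adjusted p = 0.168).

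Amotl2, the angiomotin that YAP and TEAD induce, read 8.99, 9.42 and 8.73 at day 0. It read 8.23, 8.43 and 8.35 in spontaneous cells, 8.39, 8.53 and 8.27 in cardiac cells, and 8.55, 9.21 and 10.07 in the libraries labelled sorted. The spontaneous and cardiac libraries all lay below day 0, while the sorted libraries ran from below the day 0 range to above it. The log2 differences from day 0 were -0.71 (adjusted p = 0.157) and -0.65 (adjusted p = 0.212) in the spontaneous and cardiac groups, with an SE of 0.29. In the sorted group the difference was 0.23 (adjusted p = 0.744). It was -0.17 without sorted replicate 3 and -0.50 without sorted replicates 2 and 3, so its sign rested on these libraries.

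**Figure D1:**
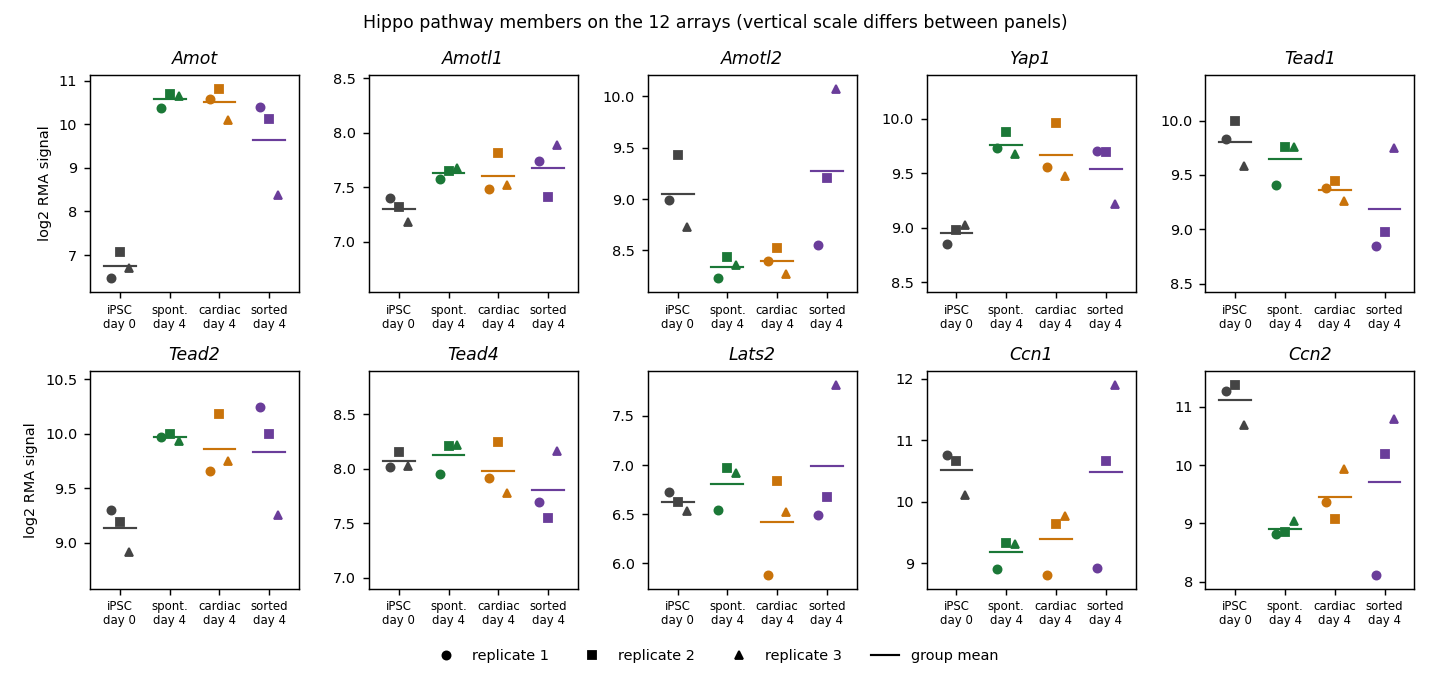
Log2 RMA signal (vertical axes, which differ between panels) of the 10 Hippo members in the 4 groups, with 1 symbol per array and a line at the group mean. Amot was near 6.8 at day 0 and above 10 in 8 of 9 day 4 libraries, and in the panels of Amotl2, Lats2 and Ccn1 the library labelled sorted replicate 3 was the highest of all 12.

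Yap1, the coactivator itself, read 8.86, 8.98 and 9.03 at day 0. It read 9.73, 9.88 and 9.67 in spontaneous cells, 9.56, 9.96 and 9.48 in cardiac cells, and 9.71, 9.70 and 9.22 in the libraries labelled sorted. All 9 day 4 libraries were above all day 0 libraries. The log2 differences were 0.81 (1.75-fold, adjusted p = 0.00872), 0.71 (1.64-fold, adjusted p = 0.0225) and 0.58 (1.5-fold, adjusted p = 0.0565), each with an SE of 0.16. The first 2 passed the p-value threshold of 0.05, and none reached the minimum of 2-fold required for a call. Of all genes, 9.75%, 6.17% and 5.11% had an adjusted p under 0.05 in these comparisons, whatever the size. In the 1 sorted library that remains without replicates 2 and 3, the difference of Yap1 was 0.75 (adjusted p = 0.0382), also under 2-fold.

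Of the TEAD factors over all 12 arrays, Tead2 alone had an adjusted p under 0.05, in spontaneous cells, below the 2-fold minimum. Tead2, the TEAD factor known for early embryonic expression, read 9.30, 9.19 and 8.91 at day 0, and 9.97, 10.001 and 9.94 in spontaneous cells. It read 9.66, 10.18 and 9.75 in cardiac cells and 10.24, 10.0004 and 9.25 in the libraries labelled sorted, where replicate 3 lay within the day 0 range. Its log2 differences were 0.83 (1.78-fold, adjusted p = 0.031), 0.72 (adjusted p = 0.0703) and 0.70 (adjusted p = 0.0951), with an SE of 0.22. In the single sorted library that remains without replicates 2 and 3, assumed to vary like the other groups, the difference of Tead2 was 1.11 (adjusted p = 0.0102).

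Tead1, a TEAD factor of heart and muscle, read 9.83, 9.999 and 9.59 at day 0. Its log2 differences were -0.16 (adjusted p = 0.692), -0.44 (adjusted p = 0.229) and -0.61 (adjusted p = 0.117) in the spontaneous, cardiac and sorted groups, with an SE of 0.21. Every cardiac library was below every day 0 library, and the other day 4 groups overlapped day 0. Sorted replicate 1, tested without the other sorted libraries, differed by -0.96 (adjusted p = 0.0142), just under 2-fold. A second, dimmer probe set of Tead1 had group means of 8.64 at day 0 and 8.35, 8.23 and 8.09 in these groups, the same order. Tead4, the TEAD factor of trophectoderm, ran from 8.02 to 8.16 at day 0 and from 7.55 to 8.25 over the 9 day 4 libraries. Its differences of 0.06, -0.09 and -0.26 had adjusted p-values of 0.886, 0.775 and 0.463, and the last was -0.37 (adjusted p = 0.308) without sorted replicates 2 and 3.

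Lats2, the kinase that phosphorylates YAP and is also a YAP target, read 6.73, 6.62 and 6.53 at day 0. Its differences of 0.18, -0.21 and 0.37 (SE 0.30) had adjusted p-values of 0.767, 0.695 and 0.578, and all 3 day 4 groups overlapped day 0. The highest of the 12 values was 7.81 in sorted replicate 3, against 6.495 and 6.67 in the other sorted libraries. Its sorted difference was -0.13 without sorted replicates 2 and 3.

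The CCN genes had lower signals in every unsorted day 4 library than in any day 0 library. Ccn2, which encodes a secreted matricellular protein and is a direct target of YAP and TEAD, read 11.27, 11.37 and 10.68 at day 0. It read 8.81, 8.86 and 9.05 in spontaneous cells, 9.36, 9.08 and 9.93 in cardiac cells, and 8.13, 10.18 and 10.79 in the libraries labelled sorted. All 6 unsorted day 4 libraries lay below all day 0 libraries, and the sorted libraries ran from below every other day 4 library to within the day 0 range. Ccn2 fell by 2.20 ± 0.49 (SE) on the log2 scale in spontaneous cells, or 4.59-fold (adjusted p = 0.0146). This call was lost without iPSC replicate 1 (adjusted p = 0.0596), iPSC replicate 2 (adjusted p = 0.0607) or spontaneous replicate 2 (adjusted p = 0.0589), with differences from -2.41 to -2.07 over the 12 fits that left out 1 array. The differences in cardiac cells (-1.64, adjusted p = 0.0675) and in the sorted group (-1.40, adjusted p = 0.132) did not pass. Without sorted replicates 2 and 3 they were -1.64 (adjusted p = 0.00128) and -2.98 (adjusted p = 0.00083), the latter from 1 library whose spread is taken from the other groups, and the cardiac difference also passed without sorted replicate 1 (adjusted p = 0.00152) or without sorted replicate 3 (adjusted p = 0.0238). The sorted difference passed without sorted replicate 3 as well, at -1.95 (adjusted p = 0.0215).

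Ccn1, the closest relative of Ccn2 and likewise a YAP and TEAD target, read 10.76, 10.67 and 10.10 at day 0. It read 8.92, 9.33 and 9.31 in spontaneous cells, 8.82, 9.63 and 9.76 in cardiac cells, and 8.93, 10.66 and 11.89 in the libraries labelled sorted. The unsorted day 4 libraries were all below day 0, and the 3 sorted libraries lay below, within and above the day 0 range. The differences were -1.32 (2.5-fold, adjusted p = 0.143), -1.11 (2.15-fold, adjusted p = 0.239) and -0.02 (adjusted p = 0.991), with an SE of 0.53, and none passed. Without sorted replicates 2 and 3 they were -1.32 (adjusted p = 0.00531), -1.11 (adjusted p = 0.0173) and -1.58 (adjusted p = 0.0207), the last again from 1 library with the spread of the other groups. Leaving out sorted replicate 1 or sorted replicate 3 alone also brought the spontaneous difference past the threshold, at adjusted p-values of 0.0165 and 0.0344, since the 4 groups share 1 estimate of the spread.

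**Figure D2:**
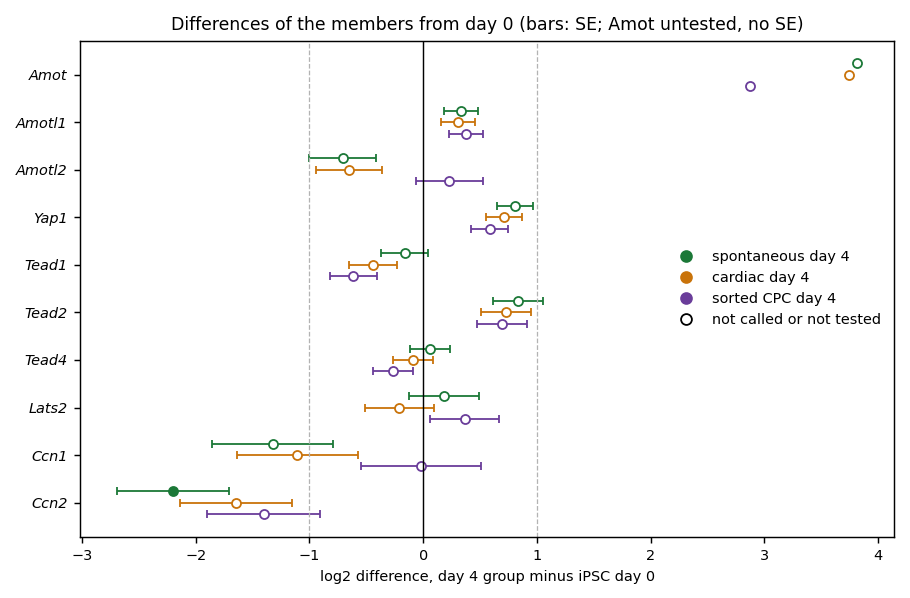
Log2 difference of each member from iPSC day 0 (horizontal axis) in the 3 day 4 groups, with bars for the SE of the limma contrast and filled symbols for calls. Ccn2 in spontaneous cells is the single filled symbol, at -2.20, and Amot is shown without an SE because it was not tested.

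Among the 9 members other than Amot, 1 was called in spontaneous cells (Ccn2, lower) and 0 in the cardiac and sorted groups. Of all genes, 3.57%, 2.2% and 2.11% were called in these comparisons. An unadjusted p under 0.05 in limma was found for 6, 4 and 5 of the 9, against 24%, 22.4% and 19.3% of all genes. The arrays of the group and of day 0 did not overlap for 6 members in spontaneous cells (3 higher and 3 lower), against 41% of all genes (19.4% higher and 21.6% lower). In cardiac cells this held for 7 members (3 higher and 4 lower), against 29% of all genes (12.8% and 16.2%), and in the sorted group for 2 (both higher), against 21.5% (10.2% and 11.3%). In sorted replicate 1 alone the largest log2 differences of the 9 members from day 0 were -1.58 (Ccn1), -2.98 (Ccn2) and 1.11 (Tead2). They describe 1 library, which lay above all other day 4 libraries for 19.1% of all genes and below all for 13.6%. How many of all genes were 2-fold from day 0 in this library was not counted.

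Between the 3 day 4 groups, 0 of the 10 members were called in any comparison by limma, against 0%, 0% and 0.00502% of all genes (cardiac minus spontaneous, sorted minus cardiac and sorted minus spontaneous, in this order). At an unadjusted p under 0.05 the members numbered 0, 2 and 4, against 3.73%, 15.7% and 11.6% of all genes. Between cardiac and spontaneous cells the differences ran from -0.39 to 0.55 on the log2 scale, and Amot differed by -0.07 (SE 0.40, adjusted p = 0.999). Ccn2 was the member whose arrays did not overlap there, with all cardiac libraries above all spontaneous libraries (difference 0.55, adjusted p = 0.999), where 8.99% of all genes did not overlap (5.23% higher and 3.77% lower).

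In the sorted group Amot lay 0.87 below the cardiac group (difference -0.87, adjusted p = 0.311) and 0.94 below the spontaneous group (difference -0.94, adjusted p = 0.403), and without sorted replicates 2 and 3 these differences were -0.11 and -0.18. Ccn1 differed by 1.09 (adjusted p = 0.331) from the cardiac and by 1.31 (adjusted p = 0.392) from the spontaneous group, and by -0.48 and -0.26 without sorted replicates 2 and 3. Amotl2 was the member whose arrays did not overlap in both comparisons, with all sorted libraries above all cardiac libraries (difference 0.88, adjusted p = 0.272) and all spontaneous libraries (difference 0.94, adjusted p = 0.324). Of all genes, 13.1% did not overlap in the first comparison (7.79% higher and 5.3% lower) and 19.6% in the second (9.44% higher and 10.2% lower). The single remaining sorted library, at 8.55, was also above all 6 unsorted day 4 libraries for Amotl2, with differences of 0.15 (adjusted p = 0.736) and 0.21 (adjusted p = 0.692) from the group means.

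The library labelled sorted replicate 3 lay at the edge of the day 4 libraries for most members. Against the 8 other day 4 libraries, it was above all of them for Amotl1, Amotl2, Lats2, Ccn1 and Ccn2, below all of them for Amot, Yap1 and Tead2, and within their range for Tead1 and Tead4. The same library was above all 8 others for 23.7% of all genes and below all for 22.4%. A list of 22 YAP and TEAD target genes, of which Ccn1, Ccn2, Amotl2 and Lats2 are members, had 12 above (54.5%) and 1 below. Among the 18 that are not members, 8 lay above (44.4%). They were Ankrd1, a cardiac ankyrin repeat protein (8.08 against 5.22 to 5.999), Myof, Axl, F3, Igfbp3, Gadd45a, Ptpn14 and Nuak2, and Asap1 lay below. Of 12 immediate early genes, taken up below, 7 (58.3%) lay above in this same library and 0 below. Of 26 other Hippo pathway genes 10 (38.5%) lay above and 9 (34.6%) below. Of 15 angiomotin binding and turnover genes 3 (20%) lay above and 8 (53.3%) below. Other libraries lay at the edge too. Cardiac replicate 2 was above all other day 4 libraries for 19.5% of all genes and below all for 26.8%, with 2 and 0 of the 22 target genes. Cardiac replicate 1 was below all others for 8 of the 22 (11.3% of all genes), and sorted replicate 1 for 6 of the 22 (13.6% of all genes). The members were chosen with values of these arrays known, so these counts describe single libraries and were not tested.

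Immediate early genes respond to stimulation and to cell dissociation within minutes. Like the CCN genes, they were on average lower in every unsorted day 4 library than in any day 0 library. The mean level of 12 such genes (Fos, Jun, Egr1, Dusp1 and others) was 8.39 to 8.58 at day 0, 7.15 to 7.42 in spontaneous cells and 7.48 to 7.62 in cardiac cells. In the libraries labelled sorted it was 7.78, 8.24 and 8.58 in replicates 1, 2 and 3. Ccn1, Ccn2 and Amotl2 rank these libraries in the same order. Within the list, Fos, Fosb, Jun and Ier2 were instead highest in replicate 2, and Egr2 was lowest there. In sorted replicate 1 the mean level was above that of all unsorted day 4 libraries, while Ccn2 (8.13) was below every other day 4 library. Of the 12, 4 were called lower in spontaneous, 3 in cardiac and 1 in sorted cells against day 0, where 1.57%, 0.943% and 1.32% of all genes were called lower. Their part in the values of the CCN genes was not tested. Markers of fibroblasts and feeder cells had a mean level of 6.49 to 7.04 at day 0 and 6.001 to 6.31 in the unsorted day 4 libraries. In sorted replicates 1, 2 and 3 it was 6.25, 5.97 and 6.15, each below the day 0 range. Of the 8 genes 2, 2 and 1 were called lower. The part of such cells in the values of the CCN genes was not tested.

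**Figure D3:**
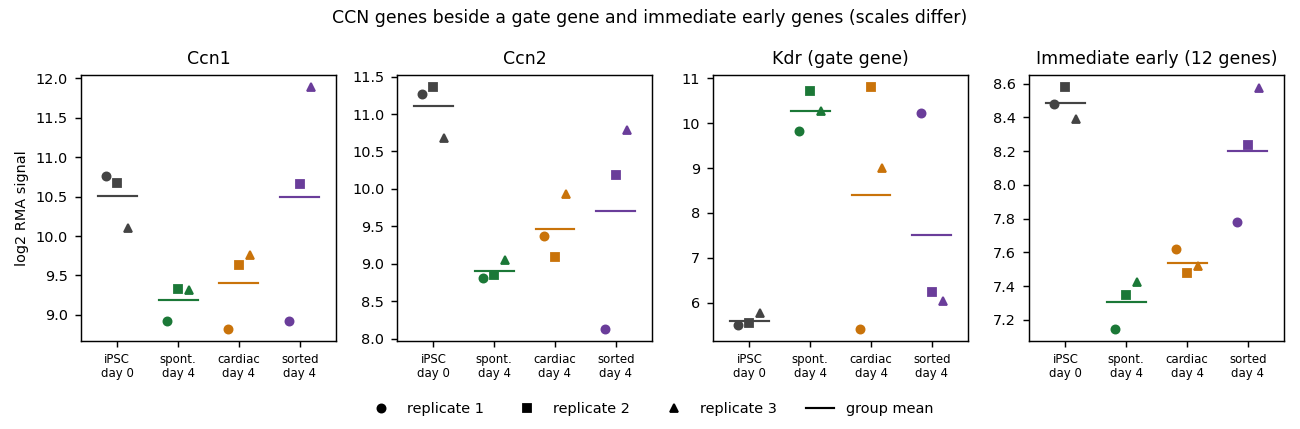
Log2 RMA signal of Ccn1, Ccn2 and the gate gene Kdr and the mean level of 12 immediate early genes (vertical axes differ) in each array, with a line at the group mean. The library labelled sorted replicate 1 has the highest Kdr of its group, at 10.23, and the lowest values of its group in the other panels.

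Markers of other cell types that early cultures can hold also differed between the groups. The mean level of 8 trophectoderm markers was 6.78 to 6.88 at day 0 and 7.68 to 8.53 in spontaneous cells. It was 7.46 to 7.89 in cardiac cells and 7.10 to 7.60 in the sorted group. Of the 8, 5, 2 and 1 were called higher, where 1.99%, 1.26% and 0.787% of all genes were called higher. The 5 in spontaneous cells were Cdx2, Gata3, Krt8, Krt18 and Plac1. Elf5 had a mean of 5.29 at day 0 and in spontaneous cells, and Tfap2c of 7.69 and 7.65. The mean of 6 visceral endoderm markers was 6.17 to 6.32 at day 0, 6.51 to 7.53 in spontaneous cells, 7.85 to 9.71 in cardiac cells and 6.60 to 7.64 in the sorted group, and 0, 4 and 0 were called higher. At an unadjusted p under 0.05 in limma 1 of the 6 differed in the spontaneous and 1 in the sorted group, against 24% and 19.3% of all genes. The mean of 7 endothelial markers was 6.13 to 6.19 at day 0 and 5.60 to 6.10 at day 4, and 0 were called higher. The part of these cells in the level of Amot was not tested.

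Of 18 further YAP and TEAD target genes, 1 rose and 2 fell in spontaneous cells, 0 rose and 1 fell in cardiac cells, and 1 rose and 1 fell in the sorted group. Of all genes, 1.99% rose and 1.57% fell in spontaneous cells, 1.26% and 0.943% in cardiac cells, and 0.787% and 1.32% in the sorted group. The list's median differences were 0.25, 0.04 and 0.06, against -0.03, -0.05 and 0.03 over all genes. The list thus did not fall with Ccn1 and Ccn2 as a whole, but its genes went both ways. An unadjusted p under 0.05 in limma was found for 10, 6 and 8 of the 18, against 24%, 22.4% and 19.3% of all genes. In spontaneous cells 6 of the 18 lay above all day 0 libraries and 5 below, against 19.4% and 21.6% of all genes. Myof, a membrane repair protein, read 8.38, 8.47 and 9.09 at day 0 and 5.91 to 7.44 in the 9 day 4 libraries. It fell in all 3 groups, by 1.61 (adjusted p = 0.00642), 1.59 (adjusted p = 0.00972) and 1.92 (adjusted p = 0.00342) on the log2 scale. The last difference was -2.74 (adjusted p = 0.00055) in the 1 sorted library without replicates 2 and 3.

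Gadd45a, a growth arrest gene induced by DNA damage, fell in spontaneous cells by 1.64 (adjusted p = 0.00682). Its differences in cardiac and sorted cells were -1.10 (adjusted p = 0.0559) and -0.90 (adjusted p = 0.128), and without sorted replicates 2 and 3 they were -1.10 (adjusted p = 0.0108) and -1.70 (adjusted p = 0.00913), the latter from 1 library with the spread of the other groups. The cardiac difference also passed without cardiac replicate 1 (-1.37, adjusted p = 0.0225), sorted replicate 1 (adjusted p = 0.0141) or sorted replicate 3 (adjusted p = 0.0228), and the sorted difference without sorted replicate 3 (-1.23, adjusted p = 0.0263).

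Tgfb2, a ligand of the TGF-beta family active in heart development, rose in spontaneous cells by 1.85 (adjusted p = 0.0188), with 6.26, 8.14 and 7.92 against 5.54 to 5.68 at day 0. Its differences were 0.68 (adjusted p = 0.371) in cardiac and 0.54 (adjusted p = 0.571) in sorted cells. The call was lost without iPSC replicate 1 (adjusted p = 0.0663), iPSC replicate 2 (adjusted p = 0.065), spontaneous replicate 2 (adjusted p = 0.0946) or spontaneous replicate 3 (adjusted p = 0.0875).

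Fjx1, a secreted regulator of Fat and Dachsous cadherins, rose in the sorted group by 1.02 (adjusted p = 0.0166), with 7.70, 7.33 and 7.25 against 6.24 to 6.56 at day 0. In the spontaneous and cardiac groups it was 0.82 (adjusted p = 0.0318) and 0.85 (adjusted p = 0.0365) above day 0, below the 2-fold minimum. The sorted call was lost without iPSC replicate 1 (adjusted p = 0.0821), iPSC replicate 3 (adjusted p = 0.0503) or sorted replicate 1 (0.89, adjusted p = 0.0605), and the cardiac difference became a call without cardiac replicate 1 (1.10, adjusted p = 0.00559). Of the uncalled genes with the highest mean, Ptpn14, a phosphatase that binds YAP, differed by 0.55, 0.48 and 0.65, and the last was 0.20 (adjusted p = 0.57) without sorted replicates 2 and 3. Igfbp3, an IGF-binding protein, differed by 1.67 (adjusted p = 0.101), 1.16 (adjusted p = 0.271) and 1.47 (adjusted p = 0.199), and the last was 0.15 (adjusted p = 0.917) without sorted replicates 2 and 3. Without cardiac replicate 1 the spontaneous and cardiac differences of Igfbp3 passed, at 1.67 (adjusted p = 0.0342) and 1.87 (adjusted p = 0.0442), and the spontaneous one also without sorted replicate 1 (adjusted p = 0.0442) or sorted replicate 3 (adjusted p = 0.038), without sorted replicates 2 and 3 (adjusted p = 0.0299), with only the 6 arrays compared (adjusted p = 0.000152) and with array weights (1.55, adjusted p = 0.00895). Between the day 4 groups 0 of the 18 were called by limma. An unadjusted p under 0.05 was found for 2, 0 and 5, against 3.73%, 15.7% and 11.6% of all genes.

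**Figure D4:**
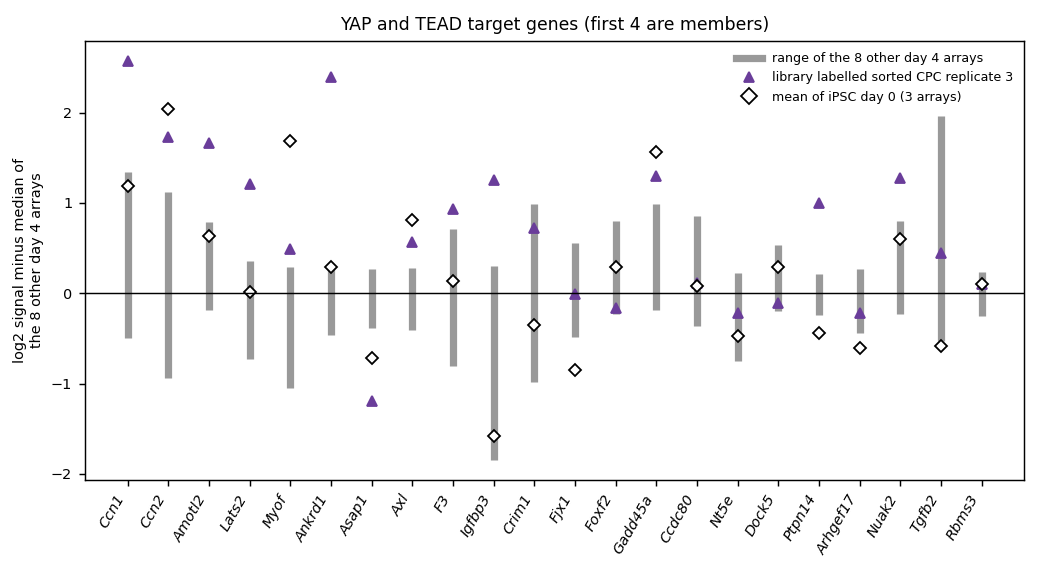
Log2 signal relative to the median of the 8 other day 4 arrays (vertical axis) for 22 YAP and TEAD target genes: the grey bar is the range of those arrays, the triangle the library labelled sorted CPC replicate 3, and the diamond the day 0 mean. The triangle lies above the bar for 12 genes and below it for Asap1.

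Of 27 other Hippo pathway genes (upstream regulators, kinases, adaptors, TAZ, Tead3 and the Vgll cofactors), 26 were measured and Stk3 was not matched. In limma 0 of the 26 were called in any of the 6 comparisons. An unadjusted p under 0.05 against day 0 was found for 6, 4 and 4, against 24%, 22.4% and 19.3% of all genes. Between the day 4 groups it was found for 0, 0 and 2, against 3.73%, 15.7% and 11.6% of all genes. The list's median differences from day 0 were 0.18, 0.06 and 0.03. Map4k4, a kinase that acts upstream of LATS, differed by 0.84 (adjusted p = 0.0512), 0.55 (adjusted p = 0.218) and 0.31 (adjusted p = 0.568), the last of which was 0.86 (adjusted p = 0.0512) without sorted replicates 2 and 3. Ajuba, a LIM protein that inhibits LATS, differed by -0.12 (adjusted p = 0.885) in spontaneous cells, by 0.07 in cardiac cells and by 0.06 in the sorted group, where its libraries read 8.44, 9.94 and 10.66. The sign for Ajuba turned with cyclic loess in cardiac cells (-0.02), and in the remaining sorted library, without replicates 2 and 3, it was lower than day 0 by 1.18 (difference -1.18, adjusted p = 0.00305). The next values are of genes chosen after their values were seen. Limd1, another LIM protein that inhibits LATS, was 0.72 above day 0 in spontaneous cells (adjusted p = 0.0381), below the 2-fold minimum. Wwtr1, which encodes TAZ, the paralog of YAP, differed by -0.17, -0.18 and -0.27, with adjusted p-values of 0.522, 0.451 and 0.341.

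Angiomotins bind the polarity proteins of tight junctions and are removed by ubiquitin ligases and tankyrases. Values of 15 such genes are given. In spontaneous cells 3 rose and 0 fell, in cardiac cells 2 rose and 0 fell, and in the sorted group 1 rose and 0 fell, where 1.99%, 1.26% and 0.787% of all genes rose. An unadjusted p under 0.05 was found for 9, 10 and 6 of the 15, against 24%, 22.4% and 19.3% of all genes, and the difference was above 0 for 15, 15 and 14. The median differences were 0.43, 0.53 and 0.38, against -0.03, -0.05 and 0.03 over all genes. Between the day 4 groups 0 of the 15 were called by limma. An unadjusted p under 0.05 was found for 0, 2 and 1, against 3.73%, 15.7% and 11.6% of all genes.

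Patj, a PDZ protein of the Crumbs complex that angiomotin binds, read 6.68, 6.52 and 6.45 at day 0 and 7.76 to 8.42 in the 9 day 4 libraries. It rose in all 3 groups, by 1.31 (2.48-fold, adjusted p = 0.00069), 1.46 (2.76-fold, adjusted p = 0.000606) and 1.53 (2.89-fold, adjusted p = 0.000475), each with an SE of 0.16. No single array changed these calls, with differences from 1.22 to 1.64 over the fits that left out 1 array.

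Mpdz, the PDZ protein most like Patj, read 5.76, 5.85 and 5.85 at day 0. It rose in spontaneous cells by 1.38 (adjusted p = 0.0131) and in cardiac cells by 1.16 (adjusted p = 0.0398), and in the sorted group it was 1.11 above day 0 (adjusted p = 0.052). The spontaneous call was lost without iPSC replicate 1 (adjusted p = 0.053) or spontaneous replicate 2 (adjusted p = 0.0606). The cardiac call was lost without any 1 of the 3 iPSC or 3 spontaneous libraries, or cardiac replicate 2 or 3, with adjusted p-values from 0.0553 to 0.12. The sorted difference passed with the replicate block (adjusted p = 0.0464), and without cardiac replicate 1 (adjusted p = 0.0121), cardiac replicate 2 (adjusted p = 0.0101) or sorted replicate 3 (1.36, adjusted p = 0.0204).

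Mpp5, which encodes the scaffold PALS1 of the same complex, rose in spontaneous cells by 1.12 (adjusted p = 0.00654), and was 0.92 (adjusted p = 0.0241) and 0.74 (adjusted p = 0.0665) above day 0 in the other groups. Without iPSC replicate 3 the spontaneous difference was 0.99, below the 2-fold minimum, and without cardiac replicate 1 the cardiac difference was 1.11 (adjusted p = 0.00768). The sorted difference was 1.12 (adjusted p = 0.0296) in the 1 library left without sorted replicates 2 and 3. Of the uncalled genes with the highest mean, Nedd4, a ubiquitin ligase that acts on angiomotins, differed by 0.03, 0.18 and 0.07. The first turned to -0.05 with cyclic loess, and the last was 0.24 (adjusted p = 0.172) without sorted replicates 2 and 3. Tnks2, a tankyrase, differed by 0.34, 0.39 and 0.24, and the last was 0.55 (adjusted p = 0.0236) without sorted replicates 2 and 3.

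**Figure D5:**
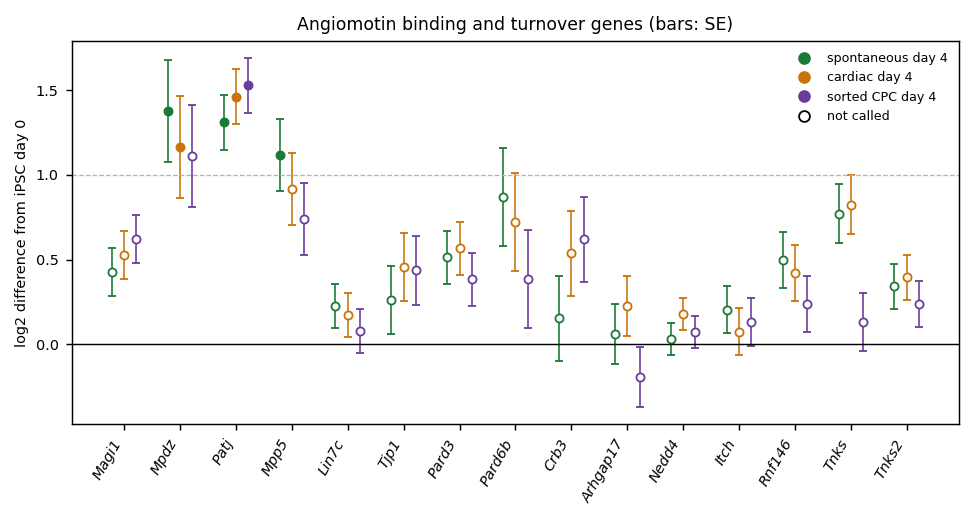
Log2 difference from iPSC day 0 (vertical axis) of 15 genes whose products bind angiomotins or act in their turnover, in the 3 day 4 groups, with bars for the SE and filled symbols for calls. Patj is filled in all 3 groups, Mpdz in spontaneous and cardiac cells and Mpp5 in spontaneous cells.

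Likeness to other genes was measured as the root mean square distance between log2 values over the 12 arrays, each gene centred on its mean. The 5 genes nearest to Amot were Cyp26a1, a retinoic acid hydroxylase (distance 0.48), Rragd, a GTPase of nutrient sensing (0.52), Pwwp3b (0.60), Has2, a hyaluronan synthase (0.62) and Tspan12 (0.65). The group means of Cyp26a1 were 6.34, 10.43, 10.68 and 9.85 at day 0 and in spontaneous, cardiac and sorted cells. The genes nearest to Ccn1 were Cxcl10 (0.43), Amotl2 (0.46), Zfp36 (0.47), Stmn2 (0.47) and Dusp1 (0.48), so Amotl2, another member, was among the 5, as were Zfp36 and Dusp1 of the immediate early list. The genes nearest to Ccn2 were Pim1 (0.42), Epha2 (0.43), Gadd45a (0.44), Gcnt2 (0.44) and Stmn2 (0.46), and those nearest to Amotl2 were Tlr2 (0.25), Fgfbp1 (0.29), Csrnp1 (0.29), Fgf17 (0.30) and Sned1 (0.30). The 12 arrays hold only 4 groups, and each gene that follows the same groups is near by this measure.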

How the data were processed

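The values of 35557 probe sets were deposited as log2 signals after RMA, and the submitters' processing notes name Affymetrix Expression Console 1.3.1. The log base is that of RMA and was checked only against the values' range; no genome build is given for the probes. RMA equalises the arrays' distributions, so levels are compared between arrays and not between genes.

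Probe sets with 1 gene symbol (21789) were used and the one with the highest mean kept per gene, which left 19938 genes; 1621 probe sets had several symbols and 12147 were not listed. Groups followed the labels. One linear model of 4 group means over 12 arrays was fitted with limma 3.58.1 in R 4.3.3, with an intensity trend (8 residual and 5.01 prior degrees of freedom). Two-sided p-values were adjusted over all genes by the Benjamini-Hochberg method, and a call required an adjusted p under 0.05 and at least 2-fold. The fit was tested on simulated data that gave each gene 1 spread for all 4 groups. The simulation does not cover unequal spread, such as the SDs of Ccn1 of 0.23 (spontaneous) and 1.49 (sorted). SDs are between arrays of a group and SEs are of the contrast. The number of arrays limits the precision.

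Members and lists were chosen with earlier results of these data known. Named genes were the members, up to 4 called and 2 uncalled genes per list, and the 5 nearest genes. The alternatives were a replicate block, no intensity trend, array weights, a filter on dim genes, mean probe sets, array medians subtracted, cyclic loess, a fit of 6 arrays at a time, no minimum fold change and each array left out; fits without libraries whose gate genes were near day 0 were added after seeing the data. Replicate numbers were not used as pairs in the main fit. Of 18 pairs of same-numbered arrays, 6 had correlated deviations above 0.1 (range -0.382 to 0.307). This cannot show whether same-numbered samples share a culture, which the labels do not say.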

Additional observations from a re-analysis of the deposited data

Results flagged for a closer look

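Mob1a, an adaptor that activates the LATS kinases, had differences of opposite sign from day 0 in 2 groups, neither of which passed the test. Every spontaneous library was above every day 0 library (log2 difference 0.21, adjusted p = 0.417 by limma), and every library labelled sorted was below (difference -0.22, adjusted p = 0.461). Of all genes, 19.4% lay above all day 0 libraries in spontaneous cells and 11.3% lay below in the sorted group. Tested directly, the sorted group differed from the spontaneous group by -0.43, with an unadjusted p of 0.0106 and an adjusted p of 0.341 by limma, which does not pass the threshold.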

How the results depend on the processing

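Counts of calls against day 0 follow in the order of the spontaneous, cardiac and sorted groups. Of the 9 members, 1, 0 and 0 were called, against 711, 439 and 420 of all 19938 genes. Array weights gave 2 (Ccn1, Ccn2), 1 (Ccn2) and 1 (Ccn2), against 884, 496 and 571 of all genes. No minimum fold change gave 3 (Ccn2, Tead2, Yap1) and 1 (Yap1) in the first 2 groups, where all genes gave 1943, 1231 and 1019 in the 3 groups. Fitting only the 6 arrays compared gave 2 and 2 (Ccn1, Ccn2) in the first 2 groups, and 827, 473 and 362 of all genes. The fits without sorted replicates 2 and 3, and without cardiac replicate 1 as well, leave 1 sorted library. They called more of all genes against day 0 than the main fit, so their counts of members are not given. Leaving out 1 array gave 0 to 2, 0 to 1 and 0 to 1. Of all genes it gave 430 to 771, 284 to 653 and 294 to 608, with the most in cardiac cells without cardiac replicate 1. The replicate block called 688, 435 and 416 of all genes, and the filter on dim genes 708, 441 and 417 of 12410. For Amotl2 the sorted difference from day 0 turned to -0.13 with array weights and ran from -0.17 to 0.59 with 1 array left out, and the cardiac minus spontaneous difference turned to -0.0317 with array weights and ran from -0.0079 to 0.121. With cardiac replicate 1 and sorted replicates 2 and 3 all left out, Lats2 was 0.0552 in cardiac and -0.13 in sorted cells, Amotl2 was -0.50 in sorted cells, and Ccn1 differed by -0.77 between sorted and cardiac and by -0.26 between sorted and spontaneous cells; without only the sorted libraries the first of these Ccn1 values was -0.48. With 1 array left out, the differences ran from -0.42 to 0.0552 (Lats2, cardiac), -0.0441 to 0.61 (Lats2, sorted), -0.22 to 0.011 (Tead4, cardiac), -0.72 to 0.77 (Ccn1, sorted) and -0.23 to 0.13 (Amot, cardiac minus spontaneous).

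Of the 18 other target genes 3, 1 and 2 were called. No minimum fold change gave 5 (adding Fjx1 and Arhgef17) and 2 (Myof, Fjx1). In spontaneous cells array weights and only the 6 arrays gave 4 each (adding Igfbp3). Other counts were, with array weights, 3 in cardiac cells (adding Crim1 and Gadd45a), and, with the filter on dim genes or only the 6 arrays, 2 there (Myof, Gadd45a). Counts of the fits that leave 1 sorted library are not given for the lists either. Leaving out 1 array gave 1 to 4 in cardiac cells, with 4 without cardiac replicate 1, and 1 to 4 in the sorted group, with 4 without sorted replicate 3. Of the other pathway genes 0 were called, and no minimum fold change added 1 (Limd1, spontaneous). The sorted difference of Ajuba was -0.37 with array weights and -1.18 without sorted replicates 2 and 3. It ran from -0.43 to 0.68 with 1 array left out. In cardiac cells the difference of Ajuba was -0.0222 with cyclic loess and ran from -0.0293 to 0.17. Nedd4 was -0.0481 with cyclic loess in spontaneous cells and ran from -0.0094 to 0.0675 there and -0.0146 to 0.17 in the sorted group.

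Of the angiomotin binding and turnover genes 3, 2 and 1 were called. In cardiac cells array weights and only the 6 arrays gave 1 each (Patj), no minimum fold change 6, and leaving out 1 array 1 to 3. In the sorted group the replicate block, array weights, the dim filter, only the 6 arrays and no minimum fold change gave 2 each. Leaving out 1 array gave 1 to 2 there. The replicate block changed no other count and left the count of members called in spontaneous cells at 1. The cause of these changes was not tested. The remaining uncalled differences of members between day 4 groups changed sign in 34 of 460 fits.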
